A study of Mus musculus with 24 samples.

Results

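The comparison described here is that of IKKβ-deficient with wt macrophages that had received no lipopolysaccharide (LPS). It comprises the 6 arrays at 0 h among the 12 of the IKKβ experiment and the 24 of the series, and they were taken by their sample titles, 3 for each genotype. Gene expression was measured as total RNA on Illumina MouseRef-8 v2 BeadChips. The IKKβ-deficient BMDMs (bone marrow-derived macrophages) came from *Ikkβ* F/F:*Mx1-Cre* mice (*Ikkβ* Δ), in which a Cre recombinase driven by the interferon-inducible *Mx1* promoter removes the *LoxP*-flanked part of *Ikkβ*. The labels and the methods do not state how Cre was induced. The wt BMDMs came from *Ikkβ* F/F mice, which carry the same floxed alleles without Cre. Both were on the C57BL/6 background, marrow donors were 8 to 10 weeks old, and marrow cells were grown for 7 days with 20% L929-conditioned medium, a source of the macrophage growth factor M-CSF. A further 6 arrays of the experiment hold the same genotypes after 4 h of LPS, and they enter only where they are named.

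IKKβ, encoded by *Ikbkb* (*Ikkβ*), is the catalytic kinase of the IκB kinase complex, together with IKKα (*Chuk*) and the scaffold NEMO (*Ikbkg*). When a Toll-like receptor is engaged, the complex phosphorylates IκB proteins, which are then degraded, and NF-κB dimers enter the nucleus and switch on cytokines, chemokines, survival genes and their own inhibitors. In macrophages that have met no microbial product, most NF-κB is held in the cytoplasm, and what activity remains sets a basal inflammatory tone. The arrays at 0 h address which genes differ in that state when IKKβ is reduced.

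Each array gave 25697 probe signals, of which 11024 to 11511 were detected (detection p under 0.05 against negative control beads) on the IKKβ-deficient arrays and 11010 to 11300 on the wt arrays. Signals are linear and quantile-normalized over the 12 arrays, with a median of 93.1 on each, and all differences are log2 values of IKKβ-deficient minus wt. The arrays at 0 h with the same replicate number lay on the same BeadChip, and position on the BeadChip was fixed by group, so that position and group cannot be told apart. Neither the labels nor the methods say that replicates came from separate mice, and p-values then measure only the spread between these arrays. The labels give the cell line RAW264.7 beside a protocol for BMDMs. Macrophage genes were abundant on all 6 arrays, with *Lyz2* (lysozyme) between 26882 and 51241 on IKKβ-deficient arrays and between 43539 and 54090 on wt arrays.

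A pair of features set the arrays apart before any comparison of genotypes. *Xist*, the RNA that coats the silenced X chromosome of female cells, read 89.4, 837 and 304 on IKKβ-deficient arrays 1 to 3 and 474, 104 and 96.9 on wt arrays 1 to 3. The Y-linked *Eif2s3y* read 515, 73.7 and 76.6 on the IKKβ-deficient arrays and 80.9, 758 and 823 on the wt arrays. On each BeadChip, therefore, one genotype carried the Y-linked signal and the other the *Xist* signal, and BeadChip 1 ran opposite to BeadChips 2 and 3. Without replicate 1, genotype and sex-linked signal coincide and cannot be told apart, which holds for every value given below for that setting. The part of the sex-linked signals in other differences was examined only with *Eif2s3y* as a covariate. Those values are given where they moved a call. BeadChip 1 also stood apart in inflammatory genes, as described below for *Il1b* and its group.

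*Ikbkb* read 196, 193 and 184 on the IKKβ-deficient arrays and 323, 415 and 471 on the wt arrays. The groups did not overlap, and the IKKβ-deficient arrays lay within a narrow band that was still above the detection limit on all 3. The log2 difference was −1.06 (SE 0.16, n = 3 each), a signal 0.48 times that of wt, with an adjusted p of 0.351 in limma with the BeadChip as a block. By BeadChip the differences were −0.72, −1.10 and −1.35. At 4 h of LPS the difference was −1.66 (limma, adjusted p = 0.0192). The position of the probe relative to the floxed exons is unknown here, so the remaining signal does not measure how much intact transcript was left. Without replicate 1, *Ikbkb* passed the threshold at 0 h with a difference of −1.23 (limma, adjusted p = 0.018).

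Across the transcriptome, 0 of 8569 genes (0%) passed an adjusted p of 0.05 at 0 h in limma. At an unadjusted p under 0.05 there were 362 genes (4.22%), of which 166 were higher (1.94%) and 196 lower (2.29%) in IKKβ-deficient BMDMs, and the smallest adjusted p was 0.351. Where arrays were only scaled to a common median, 52 were higher and 535 lower. The methods' test on the log2 values of the 6 arrays gave 116 genes at an unadjusted p up to 0.05 and 0 after Benjamini-Hochberg adjustment. Counting by pairs, 1592 genes (18.6%) were higher and 1211 (14.1%) lower on all 3 BeadChips. All IKKβ-deficient arrays lay above all wt arrays for 131 genes (1.53%) and below them for 124 (1.45%). Nothing below is therefore a called difference at 0 h. Genes are described by their values, by the number of BeadChips that share a direction, and against these background shares.

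**Figure D1:**
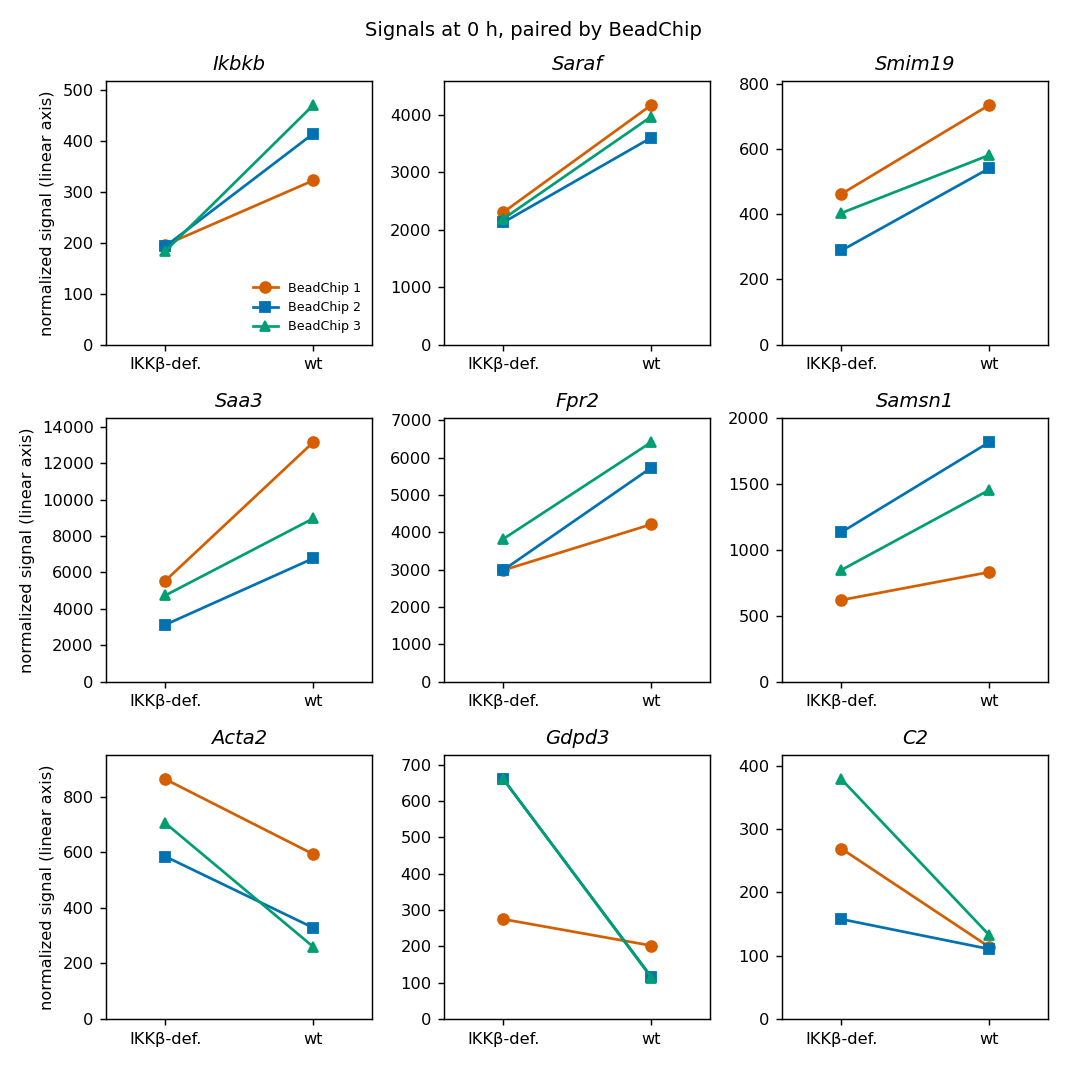
Normalized signals at 0 h of 9 genes (linear vertical axes from 0), with IKKβ-deficient BMDMs on the left and wt BMDMs on the right of each panel and the arrays of a BeadChip joined by a line (n = 3 pairs). *Ikbkb*, *Saraf*, *Smim19*, *Saa3* and *Fpr2* were lower in every IKKβ-deficient array than in any wt array, *Gdpd3* and *C2* higher in every one, while for *Samsn1* and *Acta2* the genotypes overlap although every line runs the same way.

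The gene with the smallest p besides *Ikbkb* was *Saraf*, which encodes an inhibitor of store-operated calcium entry. It read 2304, 2127 and 2189 on IKKβ-deficient arrays and 4167, 3599 and 3966 on wt arrays, a difference of −0.82 (SE 0.12, limma adjusted p = 0.351). *Smim19*, a small membrane protein gene, read 462, 289 and 404 against 735, 541 and 582 in wt, a difference of −0.70 (SE 0.13). For both genes the groups did not overlap, and at 4 h the differences were of like size, −0.77 and −0.60. With array weights, *Saraf* (−0.80) and *Ikbkb* (−1.14) passed the threshold in limma (adjusted p = 0.0308 each).

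*Saraf* and *Smim19* both lie on chromosome 8, as does *Ikbkb*. In the gene order of GRCm38.p6, *Smim19* stood 4 measured genes before *Ikbkb* and *Saraf* 34 after it, among 455 measured on the chromosome. *Nek3*, a NIMA-family kinase gene 8 measured genes before *Ikbkb*, was higher on all 3 BeadChips (247, 210 and 122 on IKKβ-deficient arrays, 156, 140 and 95.5 on wt arrays, difference 0.54). *Fut10*, a fucosyltransferase gene 24 measured genes after *Ikbkb*, read 162, 127 and 151 on IKKβ-deficient arrays and 120, 106 and 96.8 on wt arrays (difference 0.44), without overlap. The nearest measured genes *Polb* (DNA polymerase beta) and *Ap3m2* (an adaptor subunit of vesicle traffic) differed by 0.08 and −0.06. *Vdac3*, a mitochondrial channel gene 2 places before *Ikbkb*, read 1061, 1312 and 1366 on IKKβ-deficient arrays and 1062, 1900 and 1881 on wt arrays, so that it was lower by far less on BeadChip 1 than on BeadChips 2 and 3.

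**Figure D2:**
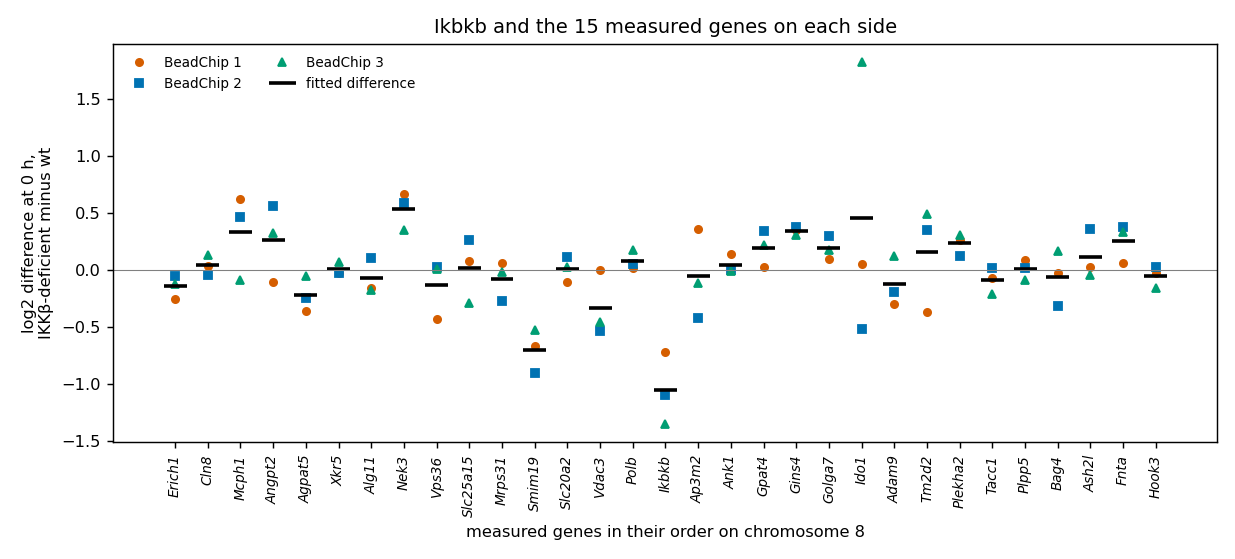
Log2 difference at 0 h (IKKβ-deficient minus wt) of *Ikbkb* and the 15 measured genes on each side of it, in their order on chromosome 8, with a symbol for each BeadChip and a bar for the fitted difference. *Ikbkb* (−1.06) and *Smim19* (−0.70) stand below 0 on all 3 BeadChips and *Nek3* (0.54) above 0 on all 3, while *Ido1* shows a wide spread between BeadChips. By smaller differences, *Erich1*, *Agpat5* and *Vdac3* also stand below 0 on all 3. *Polb*, *Gpat4*, *Gins4*, *Golga7*, *Plekha2* and *Fnta* stand above 0 on all 3 by smaller differences.

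Chromosome 17, which carries the major histocompatibility complex, held 446 of the 8569 genes tested and several of those with the smallest p. Whether it held more of these than other chromosomes was not tested. The genes named here lay from place 153 to place 279 of the 446, and *C2* and *Glo1* were added after their values were seen. *H2-T10*, a non-classical class I gene, read 615, 1320 and 1462 on IKKβ-deficient arrays and 214, 437 and 712 on wt arrays (difference 1.39, SE 0.31). *H2-M2*, another non-classical class I gene, ran the other way, with 1556, 303 and 568 on IKKβ-deficient arrays and 9427, 1114 and 988 on wt arrays (difference −1.76, SE 0.39). The pairs separated on every BeadChip, but the groups overlapped because the level moved strongly between BeadChips. *C2*, a component of the classical complement pathway, read 269, 158 and 379 on IKKβ-deficient arrays and 114, 110 and 132 on wt arrays (difference 1.09), without overlap. *Glo1* (glyoxalase, which clears methylglyoxal) differed by 0.73, *Gtf2h4* (a subunit of the general transcription factor TFIIH) by 0.46 and *Tnfrsf21* (death receptor DR6) by 0.64, each higher on all 3 BeadChips. *H2-M3*, next to *H2-M2* in the order of measured genes, differed by −0.46 and was lower on all 3. *H2-T10* passed the threshold without replicate 1 (difference 1.32, limma adjusted p = 0.0396). Genes of one class I family share sequence, and a probe can read a near-identical copy. Of 14 measured genes of the MHC class I and immunoproteasome list, 11 had a difference below 0 (78.6%, against 46.1% of all genes). On all 3 BeadChips 5 were lower (35.7%, against 14.1%) and 0 higher, with a median of −0.11.

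The other genes with the smallest p and a direction shared by all 3 BeadChips were spread over the genome. Higher in IKKβ-deficient BMDMs was *Gdpd3*, a lysophospholipase D gene, with 275, 660 and 660 against 202, 116 and 114 in wt (difference 1.83, SE 0.44). Its difference passed the threshold with *Eif2s3y* as a covariate (1.39, limma adjusted p = 0.00619), as did that of *Igf2bp3*, an RNA-binding protein gene (1.16, adjusted p = 0.0275). It also passed without replicate 1 (2.52, limma adjusted p = 5.94e-05). *Erdr1*, which lies by the pseudoautosomal end of the sex chromosomes, read 185, 293 and 275 on IKKβ-deficient arrays and 93.7, 115 and 140 on wt arrays (difference 1.10). *Nes* (the intermediate filament nestin) differed by 0.61, *Rapsn* (a synaptic scaffold) by 0.45 and *Stard4* (a cholesterol transfer protein) by 0.40.

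Lower in IKKβ-deficient BMDMs was *Cyria*, which encodes a Rac1-binding regulator of actin, with 1793, 1193 and 2002 against 2708, 3564 and 2936 in wt (difference −0.91, SE 0.19), without overlap. *Anxa1*, which encodes the anti-inflammatory phospholipid-binding protein annexin A1, read 1300, 910 and 1356 on IKKβ-deficient arrays and 2002, 1307 and 1897 on wt arrays (difference −0.54). *Samsn1*, an adaptor that restrains lymphocyte activation, read 620, 1135 and 848 against 832, 1818 and 1456 in wt (difference −0.63). *Pgap2*, a gene of GPI-anchor remodelling, differed by −0.50, *Jak1*, a kinase of cytokine receptors, by −0.46 and *Dhx36*, a helicase of G-quadruplexes, by −0.41. Each of these was lower on all 3 BeadChips, and of the genes in this paragraph only *Cyria* had groups that did not overlap.

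Among 15 measured genes of the IKK complex and its upstream kinases, 11 were lower and 4 higher, with a median difference of −0.15. On all 3 BeadChips 4 were lower (26.7%, against 14.1% of all genes). The targeted gene *Ikbkb* is counted among the 15, the 11 lower and the 4 lower on all 3 BeadChips. Members of the list at an unadjusted p under 0.05 (limma) were *Ikbkb* itself, *Tab3* and *Map3k8*, all lower. *Map3k8* (TPL2, a kinase that feeds ERK signalling and is held by p105) read 541, 601 and 892 on IKKβ-deficient arrays and 561, 1312 and 1235 on wt arrays (difference −0.55). *Tab3*, an adaptor of TAK1, read 210, 156 and 166 against 204, 251 and 209 in wt (difference −0.33). *Ikbkg* (NEMO) read 496, 406 and 402 against 544, 588 and 470 in wt (difference −0.30), lower on every BeadChip. The related kinases *Tbk1* (−0.17) and *Ikbke* (−0.15), which act on interferon regulatory factors, were little different beside their SE of 0.11 and 0.30. *Chuk* (IKKα) was not among the genes kept after the filter on dim probes.

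Of 10 measured NF-κB subunits and IκB proteins, 9 had a difference below 0 and 1 above, against 46.1% below 0 among all genes, but 0 had an unadjusted p under 0.05 (limma) and 1 was lower on all 3 BeadChips (10%, against 14.1%). *Rela* (p65, the main activating subunit) read 1487, 1797 and 2669 on IKKβ-deficient arrays and 1615, 1810 and 3038 on wt arrays (difference −0.11). *Rel* (c-Rel) differed by −0.25, *Relb* by −0.05 and *Nfkb2* (p100) by −0.04, with SEs between 0.22 and 0.32. Of the inhibitors, *Nfkbia* (IκBα) read 1106, 3695 and 7653 on IKKβ-deficient arrays and 1458, 4046 and 7390 on wt arrays (difference −0.16, SE 0.43). *Nfkbie* (IκBε) differed by −0.37, *Nfkbib* (IκBβ) by −0.22, *Nfkbiz* by −0.16, *Nfkbid* by −0.05 and *Bcl3* by 0.01 (−0.14 with median scaling), all with SEs of 0.20 to 0.54.

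Most genes of the acute-phase and antimicrobial list had lower signals in IKKβ-deficient BMDMs, though none passed the threshold. Of 15 measured, 14 had a difference below 0 and 10 were lower on all 3 BeadChips (66.7%, against 14.1% of all genes). The median difference was −0.24, beside 0.01 for all genes, and by BeadChip the medians were −0.19, −0.39 and −0.24. As arrays were left out the median lay between −0.54 and −0.20. Neutrophil and granulocyte precursor markers, which share *Lcn2* with this list, were also mostly below 0 (10 of 12, median −0.15), and their part in it was not tested. *Saa3*, the serum amyloid A of macrophages, read 5554, 3134 and 4745 on IKKβ-deficient arrays and 13151, 6775 and 8967 on wt arrays. The groups did not overlap and the difference was −1.09 (SE 0.26). *Fpr2*, a receptor for serum amyloid A and formyl peptides, read 2986, 2991 and 3823 on IKKβ-deficient arrays and 4212, 5730 and 6411 on wt arrays, also without overlap (difference −0.73, SE 0.24).

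*Clec4e* (Mincle, a receptor for mycobacterial cord factor) read 350, 3422 and 2363 against 1043, 7119 and 4745 in wt (difference −1.21, SE 0.77, or −1.81 to −0.37 as arrays were left out). *Lcn2*, which encodes a protein that withholds bacterial siderophores, read 161, 281 and 996 on IKKβ-deficient arrays and 239, 690 and 1584 on wt arrays (difference −0.85, SE 0.48, or −1.20 to −0.26 as arrays were left out). *Cp* (ceruloplasmin, a copper-carrying ferroxidase) read 112, 121 and 261 against 118, 242 and 540 in wt (difference −0.71). These 3 genes were lower on every BeadChip, but their groups overlapped, since wt BeadChip 1 lay below IKKβ-deficient BeadChip 3. *Cp* passed the threshold without replicate 1 (difference −1.03, limma adjusted p = 0.0396), a setting in which genotype and sex-linked signal cannot be told apart.

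The cytokines and chemokines were not at one basal level in the 3 replicates. *Il1b* (interleukin-1β) read 128, 1762 and 6617 on IKKβ-deficient arrays and 131, 10304 and 15929 on wt arrays, where the median signal of an array was 93.1. On BeadChip 1 both genotypes were near that median and nearly equal, whereas on BeadChips 2 and 3 the wt arrays were already within a few-fold of their LPS-treated partners at 27640 and 25732. The fitted difference was −1.28 with an SE of 1.43, and it lay between −3.06 and −0.34 as arrays were left out. *Il1a* (interleukin-1α) read 85.9, 201 and 320 on IKKβ-deficient arrays and 87, 1120 and 733 on wt arrays (difference −1.23, SE 0.63). Its signal on BeadChip 1 was at the background in both genotypes.

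*Tnfaip3* (A20, a deubiquitinase that restrains NF-κB signalling) followed the same layout, with 198, 887 and 1413 on IKKβ-deficient arrays and 217, 1825 and 2859 on wt arrays (difference −0.73, SE 0.58, or −1.48 to −0.31 as arrays were left out). *Il6* read 95.7, 328 and 461 against 90.1, 859 and 575 in wt (difference −0.54, or −1.21 to −0.09 as arrays were left out), and *Cxcl9*, an interferon-γ-inducible chemokine gene, 91.3, 1959 and 11249 against 98.6, 6784 and 13876 in wt (difference −0.74, or −1.57 to −0.17). For these genes the difference lay on BeadChips 2 and 3, where genotype and sex-linked signal cannot be told apart. *Tnf* read 643, 6208 and 2794 on IKKβ-deficient arrays and 415, 8719 and 4374 on wt arrays, that is, higher on BeadChip 1 and lower on the others.

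Genes of this kind did not all run the same way. *Cxcl10*, a chemokine gene for T cells, read 152, 38212 and 33391 on IKKβ-deficient arrays and 206, 40861 and 36851 on wt arrays. It was lower on every BeadChip (−0.44, −0.10 and −0.14), by little beside the spread between BeadChips. *Ccl7* and *Ccl2*, whose products recruit monocytes, were higher on all 3 BeadChips. *Ccl7* read 216, 27640 and 18140 against 116, 26882 and 13566 in wt (difference 0.45, SE 1.05), and *Ccl2* 139, 7603 and 3886 against 99, 6484 and 3138 in wt (difference 0.34, SE 0.68). *Ccl9*, a chemokine gene abundant in myeloid cells, read 16009, 15281 and 24633 on IKKβ-deficient arrays and 21414, 31458 and 28126 on wt arrays (difference −0.55), lower on every BeadChip. *Socs3*, a feedback inhibitor of cytokine signalling, read 172, 7470 and 11524 against 259, 8046 and 13298 in wt (difference −0.30), also lower on every BeadChip. The directions of *Tnf*, *Cxcl10*, *Socs3*, *Ccl2* and *Ccl7* turned when single arrays were left out.

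By list, the inflammatory cytokines had 14 of 20 measured members below 0 (median −0.14, or −0.48 to 0.17 as arrays were left out), with 6 lower and 4 higher on all 3 BeadChips. Chemokines were evenly placed, with 11 of 20 below 0 (median −0.03, or −0.39 to 0.31 as arrays were left out) and 5 each lower and higher on all 3 BeadChips. Among 14 feedback inhibitors of NF-κB, 7 were lower on all 3 BeadChips (50%, against 14.1% of all genes), with a median of −0.22. Survival targets of NF-κB had 9 of 12 below 0 (median −0.19). *Birc2* (cIAP1, a ubiquitin ligase of TNF signalling) read 631, 647 and 617 against 577, 1337 and 1129 in wt, and *Bcl2a1d*, an anti-apoptotic gene whose copies share sequence, read 101, 169 and 488 against 98.8, 1058 and 859 in wt. Both were lower on BeadChips 2 and 3 and slightly higher on BeadChip 1.

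**Figure D3:**
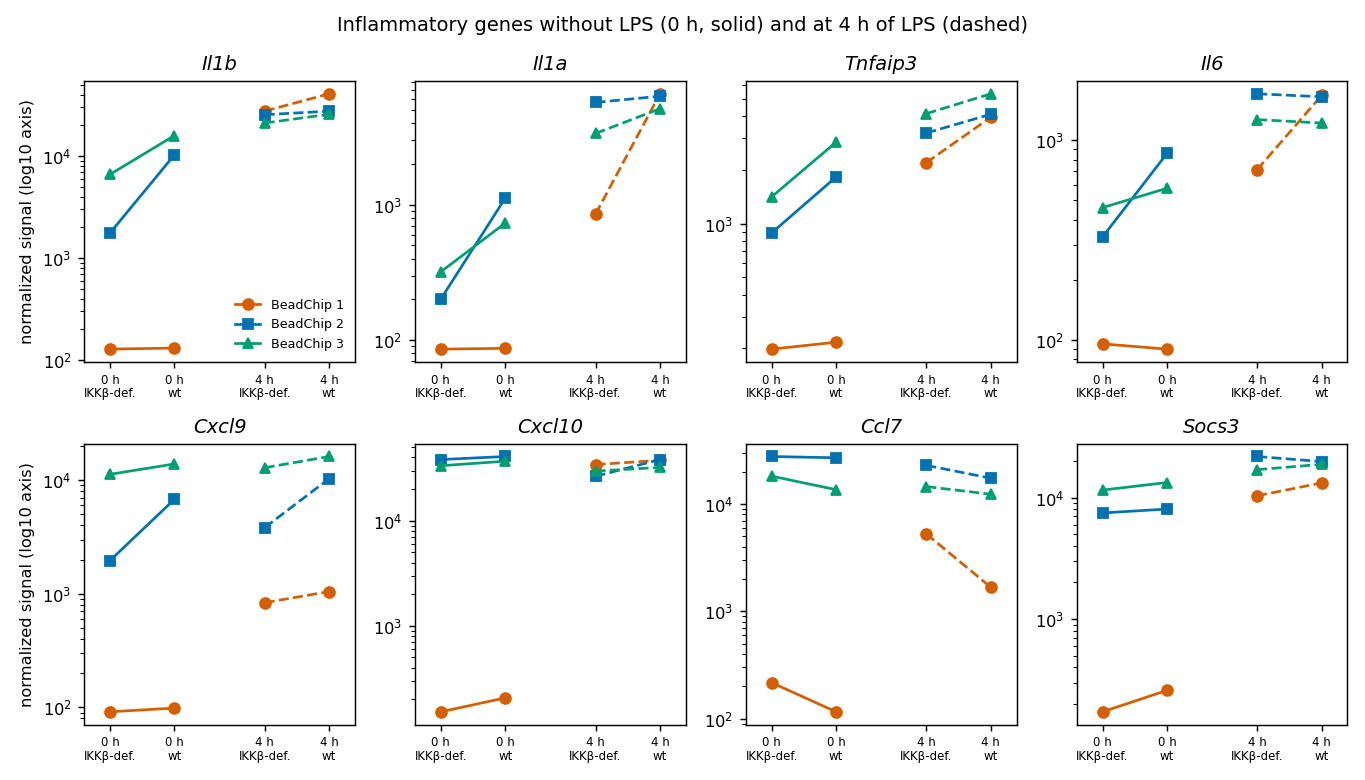
Normalized signal (log10 axes) of 8 inflammatory genes on each array without LPS (0 h, solid lines) and at 4 h of LPS (dashed lines), with IKKβ-deficient left of wt and a colour and symbol for each BeadChip. Without LPS both arrays of BeadChip 1 lie between 85.9 and 259 in every panel, as with 128 and 131 for *Il1b*, and those of BeadChips 2 and 3 lie higher, reaching the levels at 4 h for *Cxcl10*.

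Several of these genes carry an NF-κB decamer consensus close to their start, and 3 sequences are printed to show where it lies in genes that were lower on every BeadChip (*Ccl9*, *Tnfaip3*) and in one that was not (*Nfkbia*). They are the 250 bases before the gene start in RefSeq on GRCm38.p6, 5′ to 3′ on the gene's strand, with matches to the consensus in capitals. *Ccl9* lies at chr11:83578637-83578886 on the minus strand, *Tnfaip3* at chr10:19015411-19015660 on the minus strand and *Nfkbia* at chr12:55492648-55492897 on the minus strand.
Ccl9: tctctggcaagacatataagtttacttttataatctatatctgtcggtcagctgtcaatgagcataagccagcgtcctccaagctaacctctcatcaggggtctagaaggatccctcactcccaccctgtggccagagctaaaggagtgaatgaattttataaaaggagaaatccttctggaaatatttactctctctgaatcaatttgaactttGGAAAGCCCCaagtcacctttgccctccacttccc
Tnfaip3: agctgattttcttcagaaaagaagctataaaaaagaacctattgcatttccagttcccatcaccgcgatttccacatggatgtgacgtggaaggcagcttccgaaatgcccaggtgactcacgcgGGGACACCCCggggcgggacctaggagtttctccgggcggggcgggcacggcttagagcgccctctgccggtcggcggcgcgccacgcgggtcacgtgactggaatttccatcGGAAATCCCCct
Nfkbia: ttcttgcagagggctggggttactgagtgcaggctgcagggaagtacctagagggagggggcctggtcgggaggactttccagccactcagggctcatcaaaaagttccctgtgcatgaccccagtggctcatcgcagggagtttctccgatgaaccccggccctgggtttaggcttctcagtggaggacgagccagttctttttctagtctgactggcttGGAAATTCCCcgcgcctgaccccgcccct
The match starts 35 bases before the start of *Ccl9*, 125 and 12 bases before that of *Tnfaip3* and 29 bases before that of *Nfkbia*. RefSeq lists a second start of *Tnfaip3*, without a match in its 250 bases. On either strand the consensus occurred in 386 of 7032 measured genes with such a sequence (5.49%) and in 23 of 143 LPS-induced genes (16.1%, chosen as described next). Among the LPS-induced genes it was present in 9 of 61 that were lower on all 3 BeadChips (14.8%) and in 14 of 82 others (17.1%). *Saa3*, *Clec4e*, *Cp* and *Il1b* had no match in this window. A match is only a match of letters.

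To set the basal tone against the LPS response, genes that LPS raised were taken from the DMSO control arrays of the other experiment in the series (limma adjusted p under 0.05 and a fold of at least 2 at 4 h over 0 h). By their labels these share no array with this comparison. Only 1 of the 12 normalized columns of that experiment has the rank order of the intensity column under its own label. Any intensity column of that experiment was matched by 8 of the 12, and the columns were not compared with intensities of the IKKβ experiment. Its labels are therefore less certain than those of the IKKβ experiment, where 12 of 12 columns match their own label. Of 169 such genes, 144 had a difference below 0 at 0 h (85.2%, against 46.1% of all genes), and 67 were lower and 8 higher on all 3 BeadChips. The 67 are 39.6% of the list, against 14.1% of all genes. The median difference was −0.21 (−0.45 without the wt array of replicate 1). At an unadjusted p under 0.05 (limma) there were 14 of the 169 genes, all lower, against 196 lower among all 8569 genes (2.29%).

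The medians by BeadChip were 0.00, −0.34 and −0.27, and the numbers lower were 86, 140 and 142 of 169. The difference was thus on BeadChips 2 and 3, where the IKKβ-deficient arrays carried the *Xist* signal and the wt arrays the Y-linked signal. Genotype and sex-linked signal cannot be told apart there. At a fold of at least 4 the list held 65 genes, of which 60 had a difference below 0 (92.3%, against 46.1% of all genes), with a median of −0.31. The median log2 signal of these 65 genes was 7.10, 8.29 and 8.85 on IKKβ-deficient arrays and 7.14, 9.25 and 9.19 on wt arrays at 0 h. At 4 h of LPS it was 9.85, 10.33 and 10.49 on IKKβ-deficient arrays and 10.69, 10.39 and 10.76 on wt arrays. On BeadChip 1 the medians of the unstimulated arrays were low and close, and 34 of the 65 genes were lower. The summed signals of the 65 genes there were 17500 on the IKKβ-deficient and 28300 on the wt array. *H2-M2*, a member of the list, alone read 1556 and 9427 on these arrays, so the sums do not describe the list as a whole. On BeadChips 2 and 3 the medians were higher, with wt above IKKβ-deficient.

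Genes at least 2-fold above BeadChip 1 on both other BeadChips numbered 28 of the 65 in IKKβ-deficient BMDMs and 38 of the 65 in wt BMDMs, against 384 and 473 of all 8569 genes. These counts and the differences between genotypes rest on the same arrays and are given side by side only. The LPS-lowered genes of the DMSO arrays ran the other way. Of 137, 108 had a difference above 0 (against 53.9% of all genes) and 49 were higher on all 3 BeadChips (35.8%, against 18.6% of all genes), with a median of 0.15. Their medians by BeadChip were 0.06, 0.26 and 0.12, and the median lay between 0.028 and 0.34 as arrays were left out. Where arrays were only scaled to a common median, the median of all genes was −0.07, and those of the LPS-lowered genes and the cell cycle list below lay closer to 0, at 0.04 and 0.11.

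**Figure D4:**
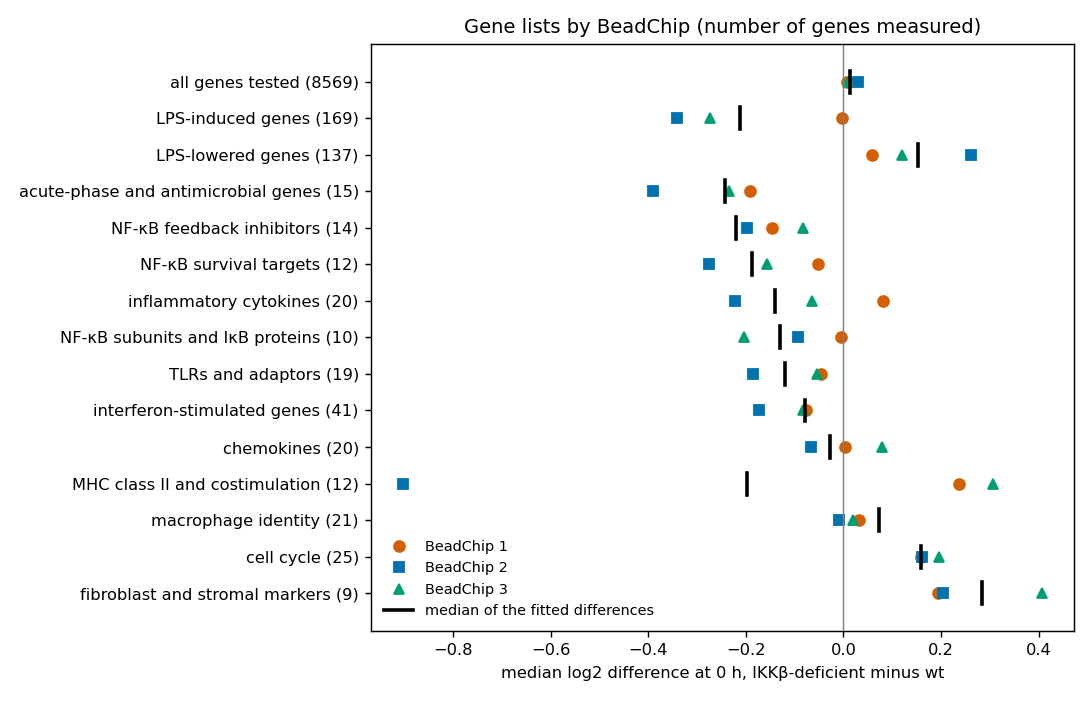
Median log2 difference at 0 h (IKKβ-deficient minus wt) of 14 gene lists and of all genes tested, with a symbol for each BeadChip and a bar for the median of the fitted differences, and the number of measured genes in brackets. LPS-induced genes lie near 0 on BeadChip 1 and at −0.34 and −0.27 on BeadChips 2 and 3, acute-phase genes lie below 0 on all 3, and fibroblast and cell cycle genes lie above 0 on all 3.

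Most interferon-stimulated genes had slightly lower signals in IKKβ-deficient BMDMs, and none passed the threshold. Of 41 measured, 31 had a difference below 0, 10 had one above 0 and 18 were lower on all 3 BeadChips (43.9%, against 14.1% of all genes), with a median of −0.08. *Trim30a*, which restrains TLR signalling, read 105, 1978 and 2458 on IKKβ-deficient arrays and 1302, 3551 and 5242 on wt arrays (difference −1.86, SE 0.78). *Bst2* (tetherin, which holds budding virus at the membrane) read 864, 1975 and 2703 against 1162, 2590 and 3782 in wt (difference −0.43). *Irf9*, the DNA-binding part of the type I interferon factor ISGF3, differed by −0.30, lower on every BeadChip. *Samd9l*, an antiviral gene, differed by −0.42. It was nearly equal on BeadChip 1 (−0.015) and lower on BeadChips 2 and 3 (−0.81 and −0.43), where genotype and sex-linked signal cannot be told apart.

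Widely used members of the list were close between genotypes, with differences of −0.08 for *Isg15*, −0.07 for *Ifit3* and 0.01 for *Irf7*. The summed signal of the list was 121000, 323000 and 434000 on IKKβ-deficient arrays and 121000, 374000 and 454000 on wt arrays, so that it too was lowest on BeadChip 1. The median turned to 0.13 when the IKKβ-deficient array of replicate 1 was left out and to 0.063 without the wt array of replicate 3. An interferon response element pattern (GAAANNGAAA or TTTCNNTTTC) lay in the 250 bases before the start in 14 of 29 of these genes with a sequence (48.3%), against 260 of 7032 measured genes (3.7%).

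The Toll-like receptors and their adaptors had 13 of 19 members below 0 (median −0.12, or −0.24 to 0.031 as arrays were left out), and 8 were lower on all 3 BeadChips (42.1%, against 14.1%). *Tlr7*, an X-linked gene for a sensor of single-stranded RNA, read 1658, 1371 and 1309 on IKKβ-deficient arrays and 1750, 2015 and 1728 on wt arrays (difference −0.34, SE 0.11), without overlap. By BeadChip it differed by −0.08, −0.56 and −0.40, so most of the difference lay on BeadChips 2 and 3. Genotype and sex-linked signal cannot be told apart there. *Tlr1*, a partner of TLR2 for lipopeptides, read 148, 131 and 523 against 153, 313 and 649 in wt (difference −0.54). *Tlr2*, *Tlr4* (the LPS receptor) and *Ly96* (its co-receptor MD-2) differed by −0.41, −0.30 and −0.26, each lower on all 3 BeadChips. *Tlr13*, a sensor of bacterial ribosomal RNA, was higher on all 3 (difference 0.36).

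Of 27 measured genes that the study names, a list chosen on these samples and no independent evidence of direction, 21 had a difference below 0 at 0 h and 16 were lower on all 3 BeadChips (59.3%, against 14.1%), with a median of −0.33. *Mmp14*, a membrane-anchored collagenase, read 3618, 1834 and 4451 on IKKβ-deficient arrays and 4967, 3572 and 6841 on wt arrays (difference −0.68). *Mefv* (pyrin, a sensor that assembles an inflammasome) read 262, 175 and 363 against 313, 233 and 562 in wt (difference −0.43). *Il4i1*, which encodes a secreted amino acid oxidase, differed by −1.01 (SE 0.73), lower on every BeadChip. *Rcl1*, which serves ribosomal RNA maturation, differed by −0.57. It was nearly equal on BeadChip 1 (−0.010) and lower on BeadChips 2 and 3 (−0.91 and −0.79), where genotype and sex-linked signal cannot be told apart.

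Most fibroblast and stromal markers kept after the filter had higher signals in IKKβ-deficient BMDMs, and several were dim. Of 13 markers, 9 were measured, 8 had a difference above 0, 6 were higher on all 3 BeadChips and 4 had groups that did not overlap (against 1.53% of all genes), with a median of 0.28. That median is the value of *Col1a1*, which was not detected on any wt array, and of the 4 genes *Fbln1* was detected on 0 of 3 and *Sparc* on 1 of 3 wt arrays, so that the counts and the median rest in part on genes that passed the filter through IKKβ-deficient arrays. *Acta2* (smooth muscle actin) read 862, 584 and 704 on IKKβ-deficient arrays and 593, 328 and 259 on wt arrays (difference 0.94, SE 0.16, limma adjusted p = 0.652). *Dcn* (decorin, a collagen-binding proteoglycan) read 136, 140 and 356 against 110, 85.6 and 117 in wt (difference 0.88). *Sparc*, a matrix glycoprotein gene, read 131, 108 and 154 against 106, 88.3 and 91.4 in wt, where it was detected on 1 of 3 arrays and lay near the array median.

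The defining collagen gene *Col1a1* read 95.4, 100 and 102 on IKKβ-deficient arrays, detected on 2 of 3, and 83.5, 82.1 and 79.2 on wt arrays, where it was not well above background on any. The summed signal of the 9 markers was 1700, 1360 and 1870 on IKKβ-deficient arrays and 1350, 1010 and 997 on wt arrays, against 243000 to 263000 and 226000 to 267000 for the 21 macrophage identity genes. Fewer cells of a type and less RNA per cell cannot be told apart in such samples. A few genes outside the list that fibroblasts also make were higher on every BeadChip, and they were picked after their values were seen. *Ccn2* (connective tissue growth factor) read 398, 563 and 1100 on IKKβ-deficient arrays and 342, 301 and 299 on wt arrays (difference 1.0). *Bgn* (biglycan) read 267, 216 and 727 against 181, 151 and 210 in wt (difference 0.96), and *Loxl1*, an elastin cross-linking enzyme gene, 122, 117 and 240 against 102, 94.6 and 102 in wt (difference 0.60), all without overlap. The part of stromal cells in other differences was not tested.

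Cell cycle genes were mostly higher in IKKβ-deficient BMDMs. Of 25 measured, 23 had a difference above 0 and 14 were higher on all 3 BeadChips (56%, against 18.6% of all genes), with a median of 0.16 and medians of 0.16, 0.16 and 0.20 by BeadChip. The median lay between 0.042 and 0.31 as arrays were left out. *Cdk1*, the kinase of mitotic entry, read 717, 972 and 256 on IKKβ-deficient arrays and 575, 706 and 176 on wt arrays (difference 0.44, SE 0.17). *Birc5* (survivin, of the chromosomal passenger complex) read 968, 1300 and 346 against 923, 1133 and 194 in wt (difference 0.37), and *Mcm6*, a subunit of the replicative helicase, 1833, 2265 and 1913 against 1337, 2053 and 1380 in wt (difference 0.36).

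The D-type cyclins went opposite ways. *Ccnd1* read 5573, 7985 and 9775 on IKKβ-deficient arrays and 3319, 4791 and 7470 on wt arrays (difference 0.62), while *Ccnd2* read 98.2, 935 and 1364 on IKKβ-deficient arrays and 101, 2030 and 2386 on wt arrays (difference −0.66). *Ccnd2* was near background on BeadChip 1 like the inflammatory genes. Of the other markers of growth and stress, antioxidant genes of NRF2 had a median of 0.06 over 19 genes, with *Hmox1* (haem oxygenase) at 0.53 and *Slc7a11* (the cystine transporter) at −0.52. The lysosome (0.05), respiratory chain (0.06), glycolysis and hypoxia (0.00) and sterol synthesis (−0.04) lists had medians close to that of all genes.

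Macrophage identity genes were close to all genes in direction, with 14 of 21 above 0, 2 each higher and lower on all 3 BeadChips and a median of 0.07 (−0.08 with median scaling). *Adgre1* (F4/80) read 11934, 6472 and 8603 on IKKβ-deficient arrays and 12118, 6115 and 7702 on wt arrays (difference 0.07, SE 0.19). *C1qc*, a chain of complement C1q, read 22500, 12964 and 17229 against 13876, 8224 and 16830 in wt (difference 0.46), and *C1qa* differed by 0.48. *Lyz2* was lower on every BeadChip (44443, 51241 and 26882 against 49132, 54090 and 43539 in wt, difference −0.31).

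Markers of other marrow cells were few. Of B cell, T and NK cell, erythroid and mast cell markers, 1 of 12, 1 of 15, 2 of 12 and 3 of 11 were kept after the filter, and none had an unadjusted p under 0.05 (limma). Neutrophil and granulocyte precursor markers had 12 of 17 kept, 10 of them below 0 (83.3%, against 46.1% of all genes), 3 lower and 0 higher on all 3 BeadChips and a median of −0.15, including *Lcn2*, which the acute-phase list also holds. Of the 12 measured MHC class II and costimulation genes, 10 had a difference below 0 (83.3%, against 46.1% of all genes), but the medians differed between BeadChips, at 0.24, −0.90 and 0.31, with −0.20 over the fitted differences (−0.43 to 0.27 as arrays were left out). *H2-Ab1* read 7674, 1258 and 5582 on IKKβ-deficient arrays and 6411, 3010 and 4290 on wt arrays, and *Cd74*, the invariant chain, 8719, 2136 and 8747 against 7373, 4989 and 7119 in wt. Both were lower on BeadChip 2 and higher on the other two, and both turned direction without replicate 2.

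The arrays at 4 h of LPS, hybridised on the same BeadChips, gave a second set of pairs. In all 6 pairs 421 genes (4.91%) were higher and 264 (3.08%) lower in IKKβ-deficient BMDMs. The sex-linked signals were opposed in the same way at 4 h, where *Eif2s3y* read 598, 74.4 and 78.9 on IKKβ-deficient arrays and 83, 677 and 779 on wt arrays, and their part in the genes shared by all 6 pairs was not tested. With a difference of at least 0.5 in size at both times there were 49 genes (24 higher, 25 lower), or 0.572% of those tested. Of the 49, 9 had groups that did not overlap at 0 h, against 1.53% above and 1.45% below among all genes. The 49 were chosen in part by their 0 h values, so this count is no independent result. Those 9 were *Gdpd3*, *Erdr1*, *C2*, *Ccn2*, *Bgn* and *Loxl1*, which were higher, and *Ikbkb*, *Saraf* and *Smim19*, which were lower. By chromosome, the 49 genes were 6 of 455 measured on chromosome 8 (1.32%), 6 of 446 on chromosome 17 (1.35%) and 4 of 269 on the X chromosome (1.49%). These are given because they were the highest shares, followed by chromosome 10 at 0.95%. The genes on chromosome 8 include the targeted *Ikbkb*.

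*Folr2*, a folate receptor of tissue macrophages, was among them with 4745, 810 and 1556 on IKKβ-deficient arrays and 1833, 424 and 1158 on wt arrays (difference 0.91 at 0 h and 0.77 at 4 h). *Gdpd3* differed by 1.83 at 0 h and 1.82 at 4 h, *H2-T10* by 1.39 and 1.08 and *H2-M2* by −1.76 and −1.12. For *Il1a* the values were −1.23 and −1.24 and for *Lcn2* −0.85 and −0.57. *Saa3*, by contrast, differed by −1.09 at 0 h and −0.24 at 4 h, and *Cyria* by −0.91 and −0.09. The change in the difference between the times had an adjusted p of 1 for each of these genes (limma interaction contrast), and none of them is shown to differ between times.

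**Figure D5:**
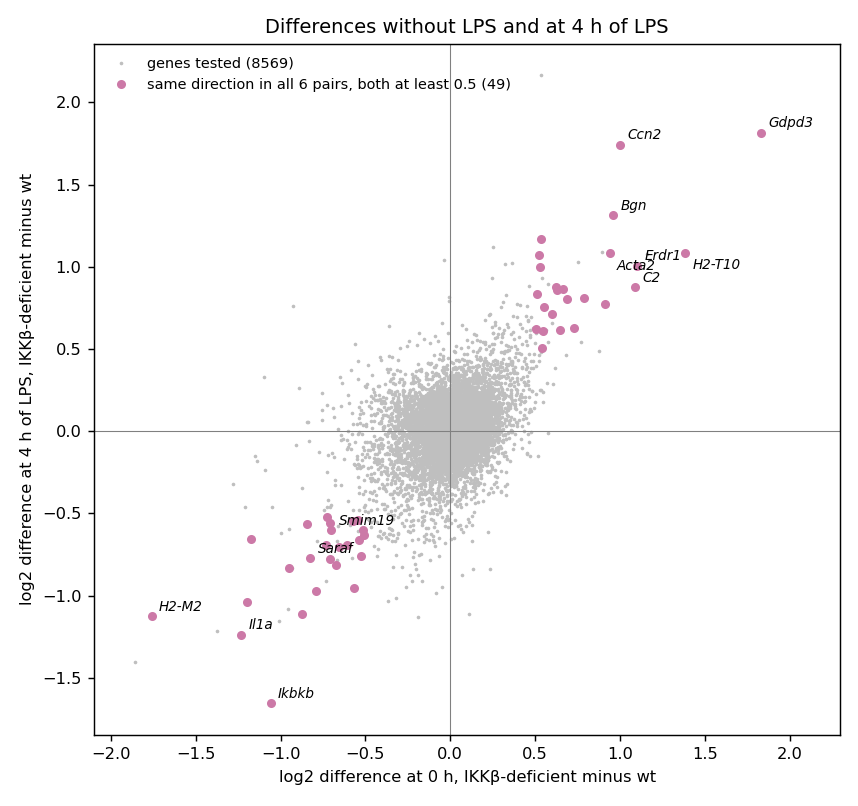
Log2 difference (IKKβ-deficient minus wt) without LPS (horizontal) against that at 4 h of LPS (vertical) for the 8569 genes tested (grey), with the 49 genes that shared a direction in all 6 pairs and differed by at least 0.5 at both times in pink. *Gdpd3*, *Ccn2* and *Bgn* lie at the upper right and *Ikbkb*, *Il1a* and *H2-M2* at the lower left.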

How the data were processed

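The members and the gene lists were chosen with earlier results of these data known. Total RNA was amplified to biotinylated cRNA, and per the methods the arrays were read with BeadStudio. The authors deposited an intensity for each of the 25697 probes on each array, not normalized and linear, and with it BeadStudio's detection p-value. They also deposited intensity values that had been quantile-normalized in Partek (version not given in the sources used here), on a linear scale that is not centred. Intensities were quantile-normalized here over the 12 arrays of the IKKβ experiment, which gave the authors' values within 0.00047 on the log2 scale for the arrays at 0 h. Of the probes, 23978 have 1 gene symbol in the platform annotation, 0 have several and 1719 have none, and 23962 gene numbers were found in RefSeq, which updated 0 symbols.

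Probes with a detection p under 0.05 on at least 3 of the 12 arrays were kept (12376, of which 715 had no gene), and the brightest probe stood for each of 8569 genes, 2210 of which had several. Log2 signals were fitted in limma 3.58.1 (R 4.3.3) with 4 groups and the BeadChip, which carries the replicate number, as a block. The contrast was IKKβ-deficient minus wt at 0 h, 2-sided, with Benjamini-Hochberg adjustment over 8569 genes. The block was used because same-numbered arrays deviated together. Their correlations were 0.424 to 0.925 over genes, and 12 of 12 arrays correlated best with their own number. The named genes are *Ikbkb*, up to 10 in each direction by unadjusted p among those with 1 direction on all 3 BeadChips, up to 4 members of each list, further inflammatory genes of the basal state, genes the study names and the measured IKK and NF-κB members. *C2*, *Ccn2*, *Bgn*, *Loxl1*, *Folr2*, *Glo1*, *Nek3* and the genes beside *Ikbkb* were added after their values were seen. Each list's difference is described by counts and its median, without a test. Arrays hold no counts, and 3 arrays a group limit the precision. The scripts were tested on simulated data. Alternatives covered the normalization, background, filter, probe choice, block, arrays in the fit, array weights, variance trend, test and left-out arrays, and *Eif2s3y* as a covariate was chosen after seeing the data.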

Additional observations from a re-analysis of the deposited data

Results flagged for a closer look

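Among the genes named by the rule for named genes, *Jak1* and *Ikbkg* had a difference at 0 h that ran opposite to that at 4 h of LPS in every pair of arrays. *Jak1*, a kinase of cytokine receptors, was lower in IKKβ-deficient BMDMs on all 3 BeadChips at 0 h (difference −0.46) and higher on all 3 at 4 h (0.26). *Ikbkg*, the scaffold of the IKK complex, was lower on all 3 at 0 h (−0.30) and higher on all 3 at 4 h (0.51). These opposite directions were not tested beyond the limma interaction contrast across all genes, in which both had an adjusted p of 1. Beside *Ikbkb*, *Polb* (0.08 at 0 h, −0.20 at 4 h) and *Erich1* (−0.14 at 0 h, 0.22 at 4 h) also ran opposite in every pair, which was not tested further. How many of all genes tested ran opposite in this way was not counted, so there is no background share to set beside these genes.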

How the results depend on the processing

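The BeadChip pairing changed the number of genes at a small p. Without the replicate block limma called 0 genes and 52 had an unadjusted p under 0.05, against 362 with it, while the 6 arrays at 0 h alone with the block gave 0 and 894. Median scaling gave 587, quantile normalization of the 6 arrays alone 891, no filter 703, array weights 872 and the methods' test 116. The number called was 1 with all probes tested (a probe without a gene symbol), 2 with array weights, 2 with *Eif2s3y* as a covariate and 0 to 5 when arrays were left out. The 5 genes without replicate 1 were *Eif2s3y* (−3.39), *Gdpd3*, *Ikbkb*, *H2-T10* and *Cp*. In that setting genotype and sex-linked signal coincide and cannot be told apart. For *Ikbkb* the left-out arrays gave −1.23 to −0.91. Where a single array was left out, its partner entered only through the 4 h arrays of its BeadChip.

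Of 83 named genes besides *Ikbkb*, 66 kept their direction under the alternatives run for single genes, and 3 of the 83 (*Gdpd3*, *H2-T10* and *Cp*) passed the threshold under at least one of them. *Saraf* passed with array weights, which were run for the count of calls. The others turned as arrays were left out, with ranges of −1.32 to 0.47 for *Tnf*, −1.28 to 0.87 for *Socs3*, −1.91 to 1.60 for *Cxcl10*, −0.37 to 0.96 for *Ccl2*, −0.71 to 1.32 for *Ccl7*, −0.43 to 0.14 for *Ikbke*, −0.67 to 0.024 for *Rel*, −0.56 to 0.30 for *Nfkbia*, −0.54 to 0.069 for *Nfkbib*, −0.50 to 0.32 for *H2-Ab1*, −0.49 to 0.27 for *Cd74*, −0.31 to 0.14 for *Relb*, −0.21 to 0.15 for *Nfkb2*, −0.34 to 0.29 for *Bcl3*, −0.75 to 0.21 for *Nfkbiz*, −0.13 to 0.093 for *Nfkbid* and −0.027 to 0.24 for *Adgre1*. Under median scaling *Bcl3* was at −0.14 and *Adgre1* at −0.079. Under normexp background correction *Bcl3* was at −0.018, and with the *Eif2s3y* covariate *Relb* was at 0.033, *Bcl3* at −0.050 and *Adgre1* at −0.0086.

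Under median scaling the median of all genes was −0.066, of interferon-stimulated genes −0.23, of acute-phase genes −0.37, of cell cycle genes 0.11 and of LPS-lowered genes 0.038. Under normexp it was −0.36 for acute-phase, 0.26 for cell cycle and 0.52 for fibroblast genes, and with the *Eif2s3y* covariate −0.35 for acute-phase genes. Left-out arrays gave −0.44 to 0.13 for interferon-stimulated, −0.54 to −0.20 for acute-phase, 0.042 to 0.31 for cell cycle, −0.45 to −0.11 for LPS-induced and 0.028 to 0.34 for LPS-lowered genes. They also turned the medians of inflammatory cytokines (−0.48 to 0.17), feedback inhibitors (−0.33 to 0.06), TLRs and adaptors (−0.24 to 0.031), chemokines (−0.39 to 0.31), MHC class II and costimulation genes (−0.43 to 0.27) and NF-κB and IκB genes (−0.38 to 0.08), among others. The cause of each was not tested. Signals near the array median of 93.1, as for *Il1a* on BeadChip 1, allow no difference to be seen.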
